A study of Mus musculus with 6 samples.

Results

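The insulin-like growth factor (IGF) system was examined in the mouse hippocampus as 10 genes, out of 55471 in the count table. They were the ligands Igf1 and Igf2, the receptors Igf1r and Igf2r, and the binding proteins Igfbp2 to Igfbp7. The genes were taken by name and family, but the family was chosen because of how its members differed between the genotypes in these same libraries. Their fold changes are therefore a description of what was measured and carry no independent support. Of the 10 genes, 9 passed the filter on low counts and Igf2 did not.

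Libraries came from C57BL/6 mice (C57BL/6J per the study's methods) aged 3 to 6 months, 3 libraries for the Control genotype and 3 for CBP-ifKO. In CBP-ifKO mice the floxed Crebbp gene, which encodes the histone acetyltransferase CBP, is recombined by the tamoxifen-inducible recombinase Camk2a-creERT2. This driver acts in forebrain excitatory neurons, so glia, vessels, meninges and interneurons keep the gene. Every animal, Controls included, received tamoxifen in corn oil by 5 intragastric doses. The treatment protocol describes the Controls as littermates without creERT2, whereas their description label names Camk2a_creERT2. Esr1, whose ligand-binding part belongs to the recombinase, was at 5.65 to 6.29 CPM (TMM-scaled counts relative to library size) in the 3 Controls and at 63.6 to 69.4 CPM in the 3 CBP-ifKO libraries, which goes with the protocol and against the description label. Per the study's methods each library pooled hippocampi of several females, and p-values measure only the spread between such pools.

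In the IGF system, IGF1 and IGF2 are secreted ligands that act through the receptor tyrosine kinase IGF1R. IGF2R, which is also the mannose 6-phosphate receptor, binds IGF2 and carries it to lysosomes without a kinase signal. The binding proteins hold IGFs in the extracellular space, where they prolong their lifetime and limit or direct their access to the receptor, and proteases such as PAPP-A release the ligand by cutting them. In the brain the binding proteins are made by several cell types, neurons, meningeal cells and vessels among them.

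The 4 binding protein genes that passed the threshold (an edgeR adjusted p under 0.05 over all genes tested) are shown by the 250 bases before their RefSeq start sites. These windows were chosen as the annotated start regions of the members that differed. The sequences are from the RefSeq promoter table of GRCm38.p6, in which all 10 genes had an entry, and each is written 5′ to 3′ on the strand of its gene. Igfbp2 lies at chr1:72824230-72824479 on the plus strand, Igfbp4 at chr11:99040994-99041243 on the plus strand, Igfbp5 at chr1:72874866-72875115 on the minus strand and Igfbp6 at chr15:102143936-102144185 on the plus strand. The Igfbp6 window ends before 102144362, where the gene span given below starts. The bases directly before that position are not shown and were not searched. The Igfbp2 window likewise ends before 72824503, where its span starts. The last bases of the Igfbp5 window lie inside the span given below, which reaches 72874884. Capitals mark matches, on either strand, to any of the motifs searched.
Igfbp2: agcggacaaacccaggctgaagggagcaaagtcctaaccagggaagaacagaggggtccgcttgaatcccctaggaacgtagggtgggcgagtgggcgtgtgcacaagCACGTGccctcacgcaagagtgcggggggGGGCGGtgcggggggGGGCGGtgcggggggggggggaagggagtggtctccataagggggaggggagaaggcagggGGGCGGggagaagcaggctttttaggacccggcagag
Igfbp4: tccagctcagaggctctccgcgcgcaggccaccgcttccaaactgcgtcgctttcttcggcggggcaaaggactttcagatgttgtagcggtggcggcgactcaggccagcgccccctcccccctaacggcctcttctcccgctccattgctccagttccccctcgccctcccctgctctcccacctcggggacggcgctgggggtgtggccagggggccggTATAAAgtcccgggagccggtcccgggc
Igfbp5: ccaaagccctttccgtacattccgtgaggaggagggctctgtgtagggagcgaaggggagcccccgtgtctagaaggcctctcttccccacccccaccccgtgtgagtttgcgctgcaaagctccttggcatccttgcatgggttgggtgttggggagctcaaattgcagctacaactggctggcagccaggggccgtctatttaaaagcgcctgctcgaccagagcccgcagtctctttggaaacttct
Igfbp6: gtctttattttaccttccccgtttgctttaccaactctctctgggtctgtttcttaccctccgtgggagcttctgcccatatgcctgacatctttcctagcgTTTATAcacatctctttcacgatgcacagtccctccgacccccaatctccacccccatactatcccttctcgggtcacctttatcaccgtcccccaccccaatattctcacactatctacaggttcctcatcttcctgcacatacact

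The motifs searched on both strands were the cyclic AMP response element TGACGTCA and its shorter core TGACG, the GC box GGGCGG, the E-box CACGTG, the TATA element TATAAA and the AP-1 element TGANTCA. The core is contained in the full response element. Igfbp2 held 3 GC boxes and 1 E-box, with the nearest GC box 37 to 32 bases before the start. RefSeq gives Igfbp2 a second start, whose window at chr1:72825137-72825386 is not printed and held no GC box or E-box but an AP-1 element (6.75% of all promoters) 39 to 33 bases before the start, and 11 CG dinucleotides. Igfbp4 held a TATA element 28 to 23 bases before the start. Igfbp6 held TATAAA on the opposite strand, 148 to 143 bases before the start, and none of the motifs searched stood in the Igfbp5 window. Among all 32851 promoters of the same length, 32.7% held the GC box, 6.02% the E-box and 12.4% the TATA element. Neither the full response element (1.55% of all promoters) nor its core (17.8%) stood in these 4 windows or in the second Igfbp2 window. The 4 printed windows held 14, 22, 10 and 7 CG dinucleotides for Igfbp2, Igfbp4, Igfbp5 and Igfbp6, and the median over all promoters was 6.

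Igfbp2 and Igfbp5 are neighbours on chromosome 1. In GRCm38, Igfbp2 spans 72824503 to 72852474 on the plus strand and Igfbp5 spans 72857932 to 72874884 on the minus strand, so that the genes are transcribed towards each other and their ends are 5457 bases apart. Their transcripts moved in opposite directions, as given below. The nearest other gene that passed the filter, Rpl37a, had a log2 fold change of 0.15 (edgeR adjusted p 0.678).

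Values of single libraries are given below in the order of replicates 1, 2 and 3 of each genotype. Total counts ran from 10199008 to 14950257 per library. Crebbp, the targeted gene, fell from 208.6, 156.4 and 208.5 CPM in the Controls to 108.6, 87.2 and 99.4 CPM in the CBP-ifKO libraries (log2 fold change -0.96, edgeR adjusted p 3.63e-05). Over all 17981 genes tested, 6.39% passed the threshold, 4.99% lower and 1.40% higher in CBP-ifKO, and 25.6% had no overlap between the groups. Among the IGF genes, 4 of the 9 tested passed, 3 lower (Igfbp2, Igfbp4 and Igfbp6) and 1 higher (Igfbp5), and 5 of the 9 had no overlap. These shares stand side by side only, because the family was chosen on the same contrast. The median log2 fold change was -0.17 over the 9 genes and -0.0033 over all genes tested. The edgeR adjusted p-values were 1.48e-05 for Igfbp4, 9.38e-05 for Igfbp5, 0.000707 for Igfbp2 and 0.00134 for Igfbp6. Those of the other 5 genes ran from 0.112 to 0.83.

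**Figure D1:**
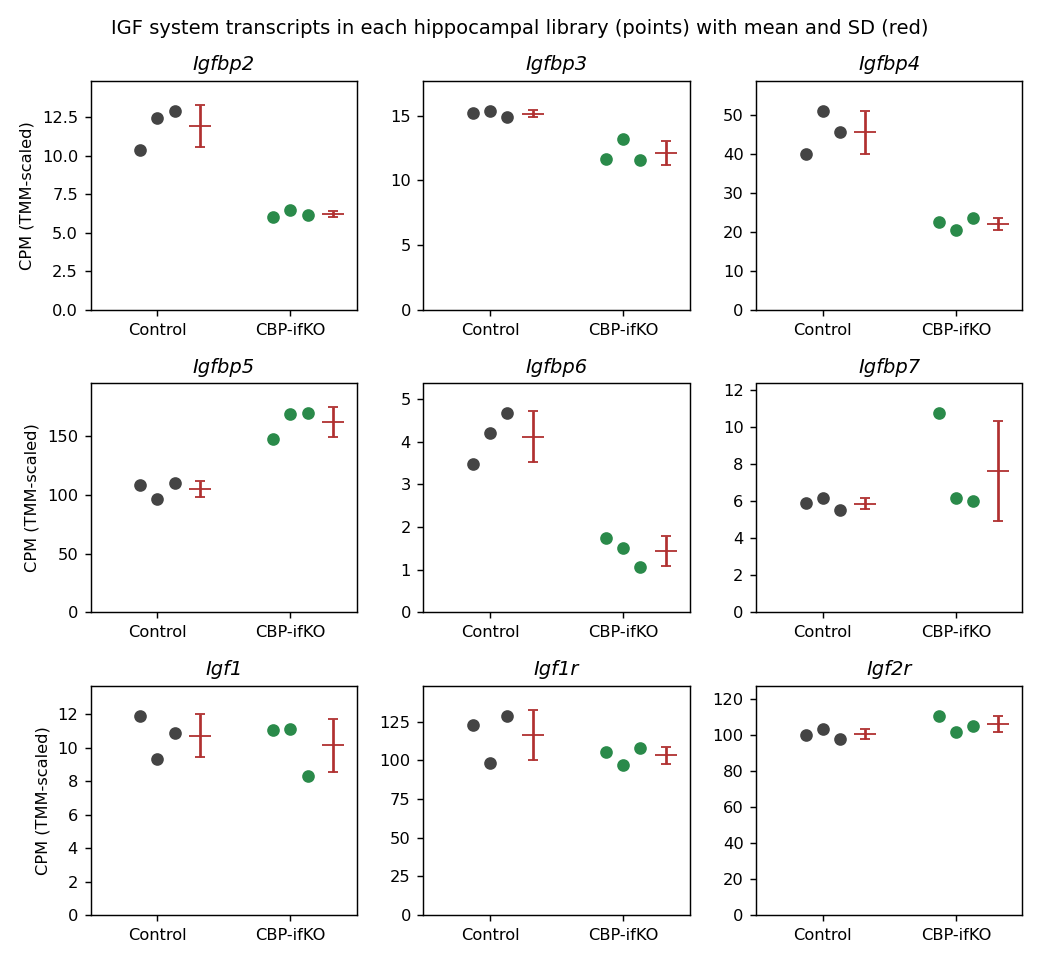
Level of each of the 9 measurable IGF genes in CPM (vertical axes from 0) in the 3 Control libraries (dark points) and the 3 CBP-ifKO libraries (green points), with the mean and SD of each group in red. Igfbp2, Igfbp3, Igfbp4 and Igfbp6 sit lower and Igfbp5 higher in every CBP-ifKO library, while the groups overlap for the other 4 genes.

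Of the ligands, Igf1 was measurable and Igf2 was near the limit of counting. Igf1 (chromosome 10, 87858265 to 87937042), the main ligand of IGF1R, was at 11.9, 9.36 and 10.9 CPM in the Controls, against 11.05, 11.1 and 8.31 CPM in the CBP-ifKO libraries. The groups overlapped, with the lowest library in CBP-ifKO and the highest in Control. The means were 10.7 ± 1.29 and 10.2 ± 1.60 CPM (SD, n = 3), and the log2 fold change was -0.07 (SE 0.15, 95% interval -0.38 to 0.23), a value whose sign depends on single libraries.

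Igf2 (chromosome 7, 142650766 to 142666816), the ligand of fetal growth that in the adult brain is made mainly by meninges and choroid plexus, had 1, 0 and 1 counts in the Controls and 0, 2 and 3 counts in the CBP-ifKO libraries. No library exceeded the floor of 3 counts, which corresponds to between 0.197 and 0.298 CPM depending on the library, so no fold change is given. Its exons share 62.8% of their bases with Gm49394 on the same strand, which had 0 counts in every library, and how the counting treated reads in shared exons is not given in the sources used here. A genotype difference in Igf2 was not detectable at this depth.

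Both receptors were abundant. Igf1r (chromosome 7, 67952827 to 68233668) was at 122.7, 98.1 and 128.7 CPM in the Controls, against 105.3, 97.0 and 107.6 CPM in the CBP-ifKO libraries. Control replicate 2 lay within the CBP-ifKO range and the other 2 Controls above it. The means were 116.5 ± 16.2 and 103.3 ± 5.56 CPM (SD, n = 3), with a log2 fold change of -0.17 (SE 0.086, 95% interval -0.35 to 0.01). Without Control replicate 2 it was -0.28 and passed the threshold (edgeR adjusted p 0.0134).

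Igf2r (chromosome 17, 12682406 to 12769664) was at 100.3, 103.8 and 98.2 CPM in the Controls, against 110.9, 102.1 and 105.5 CPM in the CBP-ifKO libraries. The groups overlapped through CBP-ifKO replicate 2. The log2 fold change was 0.07 (SE 0.062, 95% interval -0.06 to 0.21), the narrowest interval of the 9 genes. On the log2 scale, the ratio of Igf1r to Igf2r per length was -0.65 ± 0.25 in Control and -0.89 ± 0.06 in CBP-ifKO (SD, n = 3).

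Igfbp2, Igfbp4 and Igfbp6 were the binding protein genes that fell. Igfbp4 (chromosome 11, 99041244 to 99054392) encodes a binding protein that mostly restrains IGF action and is the classical substrate of the protease PAPP-A. It was at 40.0, 51.0 and 45.7 CPM in the Controls, against 22.5, 20.4 and 23.45 CPM in the CBP-ifKO libraries. No CBP-ifKO library came near the lowest Control. The mean fell from 45.6 ± 5.51 to 22.1 ± 1.54 CPM (SD, n = 3), to 48.5% of Control, with a log2 fold change of -1.05 (SE 0.098, 95% interval -1.26 to -0.84). Leaving out any 1 library gave -1.13 to -0.95. Igfbp4 was also among the genes that the study selected as lower because every one of its RNA-seq screens retrieved them. These libraries were among the screens and the others were separate experiments, so the listing is not fully independent of the values given here.

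Igfbp2, a binding protein that favours IGF2 and is abundant in the developing brain, was at 10.3, 12.45 and 12.9 CPM in the Controls, against 6.01, 6.44 and 6.17 CPM in the CBP-ifKO libraries. The groups did not overlap, and the CBP-ifKO libraries lay close together. The mean fell from 11.9 ± 1.37 to 6.21 ± 0.218 CPM (SD, n = 3), to 52.2% of Control, with a log2 fold change of -0.93 (SE 0.14, 95% interval -1.23 to -0.64). Removing per-library trends on GC content and length reduced it to -0.69 (edgeR adjusted p 0.0058). The GC content of Igfbp2 was 62.1%.

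Igfbp6 (chromosome 15, 102144362 to 102149511), which binds IGF2 in strong preference to IGF1, had the lowest level per length of the 6 binding proteins. It was at 3.47, 4.21 and 4.66 CPM in the Controls, against 1.74, 1.51 and 1.07 CPM in the CBP-ifKO libraries. The groups did not overlap. The mean fell from 4.11 ± 0.599 to 1.44 ± 0.343 CPM (SD, n = 3), to 35.0% of Control, with a log2 fold change of -1.51 (SE 0.25, 95% interval -2.03 to -0.99). These levels rest on 13 to 49 counts per library, and DESeq2 gave no adjusted p for the gene.

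Igfbp5 encodes a binding protein that attaches to extracellular matrix and is one of the binding proteins expressed by neurons. It was at 108.2, 96.6 and 109.5 CPM in the Controls, against 146.8, 168.6 and 168.9 CPM in the CBP-ifKO libraries. All CBP-ifKO libraries were above all Controls. The mean rose from 104.8 ± 7.07 to 161.4 ± 12.7 CPM (SD, n = 3), to 154% of Control, with a log2 fold change of 0.63 (SE 0.071, 95% interval 0.48 to 0.78). The study also listed Igfbp5 among its higher genes, again partly from these libraries and partly from its separate screens.

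Igfbp3 and Igfbp7 did not pass the threshold. Igfbp3 (chromosome 11, 7206086 to 7213923), the main carrier of IGFs in the circulation, was at 15.2, 15.4 and 14.9 CPM in the Controls, against 11.6, 13.2 and 11.6 CPM in the CBP-ifKO libraries. The groups did not overlap, but the log2 fold change of -0.31 (SE 0.11, 95% interval -0.55 to -0.08) had an edgeR adjusted p of 0.112.

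Igfbp7 (chromosome 5, 77349240 to 77408041), a protein related to the others that binds IGFs weakly and is known from blood vessels, was at 5.92, 6.18 and 5.55 CPM in the Controls, against 10.8, 6.18 and 6.01 CPM in the CBP-ifKO libraries. CBP-ifKO replicate 1 stood apart and the other 2 lay within the Control range. The log2 fold change of 0.35 (SE 0.21) was 0.05 without that library. In that library the summed endothelial markers, at 254 CPM, were the highest of the CBP-ifKO libraries and within the 241 to 263 CPM of the Controls; its part was not tested. Its exons share 7.03% of their bases with Polr2b on the opposite strand.

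**Figure D2:**
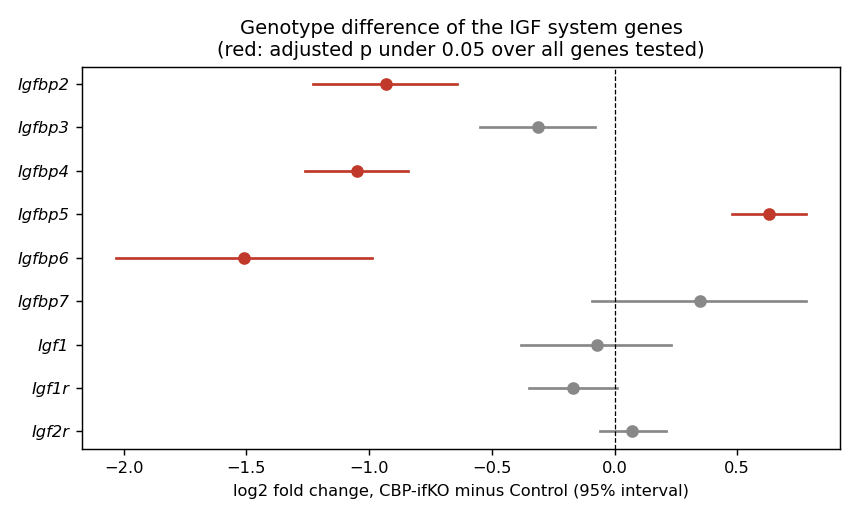
Log2 fold change of CBP-ifKO over Control for the 9 measurable IGF genes (horizontal axis, points) with 95% intervals (lines), red where the adjusted p was under 0.05 over all genes tested. Igfbp6, Igfbp4 and Igfbp2 lie at -1.51, -1.05 and -0.93, Igfbp5 lies at 0.63, and the intervals of Igf1, Igf1r, Igf2r and Igfbp7 include 0.

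Levels can be set against each other between genes only per length, and for this CPM was divided by the exon length in kilobases (RPKM). In Control, Igfbp5 had the highest RPKM (mean 17.4), followed by Igf2r at 10.8, Igfbp4 at 10.3, Igf1r at 6.94, Igfbp2 at 6.44, Igfbp7 at 4.87, Igfbp3 at 4.84, Igfbp6 at 3.70 and Igf1 at 1.08. The neighbours Igf2r and Igfbp4, Igf1r and Igfbp2, and Igfbp7 and Igfbp3 overlapped between libraries in this order. In CBP-ifKO the mean RPKM was 26.9 for Igfbp5, 11.4 for Igf2r, 6.33 for Igfbp7, 6.15 for Igf1r, 5.01 for Igfbp4, 3.88 for Igfbp3, 3.36 for Igfbp2, 1.30 for Igfbp6 and 1.03 for Igf1. Here the neighbours Igfbp7 and Igf1r, and Igfbp6 and Igf1, overlapped. Igfbp7, at 4.97 to 8.90 RPKM, also overlapped with Igfbp4, at 4.63 to 5.31 RPKM. Its mean was raised by CBP-ifKO replicate 1, which stood apart as given above. Igfbp4, which stood beside Igf2r in Control, thus lay below Igf1r in CBP-ifKO.

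The summed RPKM of the 6 binding protein genes was close in both genotypes, while its make-up was not. The sum was 45.5, 48.2 and 49.1 RPKM in the Controls, against 47.0, 46.9 and 46.4 RPKM in the CBP-ifKO libraries. The CBP-ifKO sums lay within the Control range. Igfbp5 made up 39.6%, 33.4% and 37.1% of the sum in the Controls, against 52.0%, 59.9% and 60.6% in the CBP-ifKO libraries.

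The shares of the other binding proteins followed from their levels. Igfbp4 went from 21.6% ± 2.10 to 10.7% ± 0.790 of the sum (SD, n = 3), Igfbp2 from 13.5% ± 1.06 to 7.19% ± 0.257 and Igfbp6 from 7.75% ± 0.843 to 2.77% ± 0.643. The share of Igfbp3 was 10.2% ± 0.496 in Control and 8.30% ± 0.611 in CBP-ifKO, and that of Igfbp7 was 10.2% ± 0.767 and 13.5% ± 4.70, with 18.9% in CBP-ifKO replicate 1. For the neighbouring pair on chromosome 1, the log2 ratio of Igfbp5 to Igfbp2 per length was 1.44 ± 0.22 in Control and 3.00 ± 0.08 in CBP-ifKO. These shares and ratios are other forms of the same levels and were not tested.

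**Figure D3:**
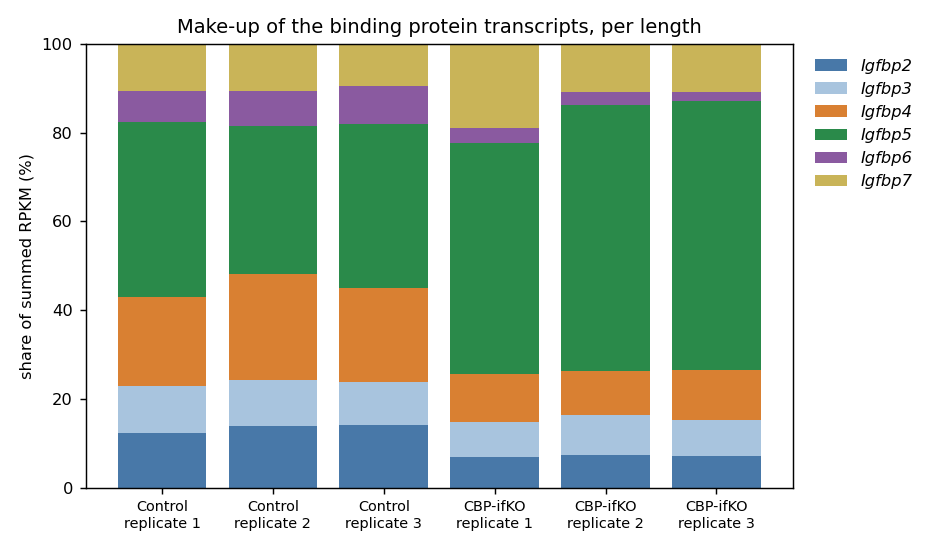
Share of each of the 6 binding protein genes in their summed RPKM (vertical axis, percent) in each library (bars). Igfbp5 (green) takes 33.4% to 39.6% of the sum in the Controls and 52.0% to 60.6% in the CBP-ifKO libraries, and Igfbp2, Igfbp4 and Igfbp6 take less in CBP-ifKO.

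The genes whose profile over the 6 libraries was most like that of a member are named by the root mean square distance of centred log2 CPM, over 17432 genes of at least 1 CPM. For Igfbp4, Krt77 and Psrc1 were among them, at distances of 0.075 and 0.080. For Igfbp2 they were Foxd1, 1700071K01Rik and Gstt3, at distances of 0.044, 0.095 and 0.096, all 3 near 1 CPM. For Igfbp5 they were Rpl19, B130055M24Rik and Npnt, at distances of 0.045, 0.052 and 0.062. Npnt was also in the list of dentate granule cell markers used below. Rpl19, a ribosomal protein gene, was at a mean of only 1.80 CPM, and reads of such genes can be lost or split where near-identical copies exist. For Igfbp6 the nearest were Gucy2g, Fbln2 and Pdyn, at larger distances of 0.16, 0.20 and 0.22. Pdyn encodes the opioid precursor prodynorphin, which is made by dentate granule cells, and had a log2 fold change of -1.42. Of the genes named here, Krt77, Psrc1, B130055M24Rik, Npnt, Gucy2g, Fbln2 and Pdyn passed the threshold themselves.

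Markers of the cell types that can make binding proteins were read in the same libraries. Bulk RNA cannot tell fewer cells of a type from less RNA per cell. Of 10 leptomeningeal fibroblast markers, 4 fell (Dcn, Col3a1, Ogn and Aldh1a2, with log2 fold changes of -0.69, -0.98, -1.13 and -1.15), none rose, and the median log2 fold change was -0.57. Their summed level was 95.9 to 107 CPM in Control and 55.4 to 67.9 CPM in CBP-ifKO, or 62.6% of Control. The lower sum of this list went with the lower levels of Igfbp2, Igfbp4 and Igfbp6 between the genotypes, which was not particular to fibroblasts. The CA1 pyramidal, CA3 pyramidal, mural and interneuron sums were also lower without overlap, at 69.4%, 82.3%, 85.1% and 93.3% of Control. Within the Controls, replicates 1, 2 and 3 had fibroblast sums of 107.4, 99.2 and 95.9 CPM, the reverse order of Igfbp2 and Igfbp6. Within CBP-ifKO, Igfbp2 followed the order of the sums, while Igfbp6 was highest where the sum was lowest. Igfbp4 was lowest in each group where the sum was highest. The part of this list in the values of these genes was not tested. The number of fibroblast markers called was 2 without Control replicate 1, Control replicate 3 or CBP-ifKO replicate 2, and also 2 with DESeq2. In the main analysis 4.99% of all genes tested were called lower.

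The neuronal lists differed among themselves. Of 8 CA1 pyramidal markers, 6 fell and the sum went from 500 to 504 CPM in Control to 339 to 362 CPM in CBP-ifKO, or 69.4% of Control, although 3 to 5 of these markers were called with 1 library left out and 4 with DESeq2. Of 10 dentate granule markers 4 fell, namely C1ql2, Plk5, Tdo2 and Pdzd2 at log2 fold changes of -2.22, -0.93, -0.89 and -0.57. In the same list 2 rose, Lct at 0.71 and Npnt at 0.56, and the sum was 98.5% of Control. Of 8 CA3 pyramidal markers 2 fell, as did 2 of 10 interneuron markers and 3 of 9 mural cell markers, and none rose. With 1 library left out, these 3 counts ran from 1 to 2, from 1 to 2 and from 1 to 4, and DESeq2 gave 2, 1 and 3. Among all genes tested, 4.99% were called lower and 1.40% higher. No marker of astrocytes, microglia, oligodendrocytes, endothelium, choroid plexus or thalamus passed the threshold in edgeR or DESeq2, and 1, 3, 2, 2, 2 and 1 of them had an unadjusted p under 0.05, as did 21.2% of all genes. With 1 library left out, up to 1 astrocyte and 1 endothelial marker were called lower. For choroid plexus only 5 of 10 markers were tested, with a sum of 47.7 to 64.3 CPM in Control and 36.8 to 62.4 CPM in CBP-ifKO. The part of these lists in the values of Igfbp4 and Igfbp5 was not tested.

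**Figure D4:**
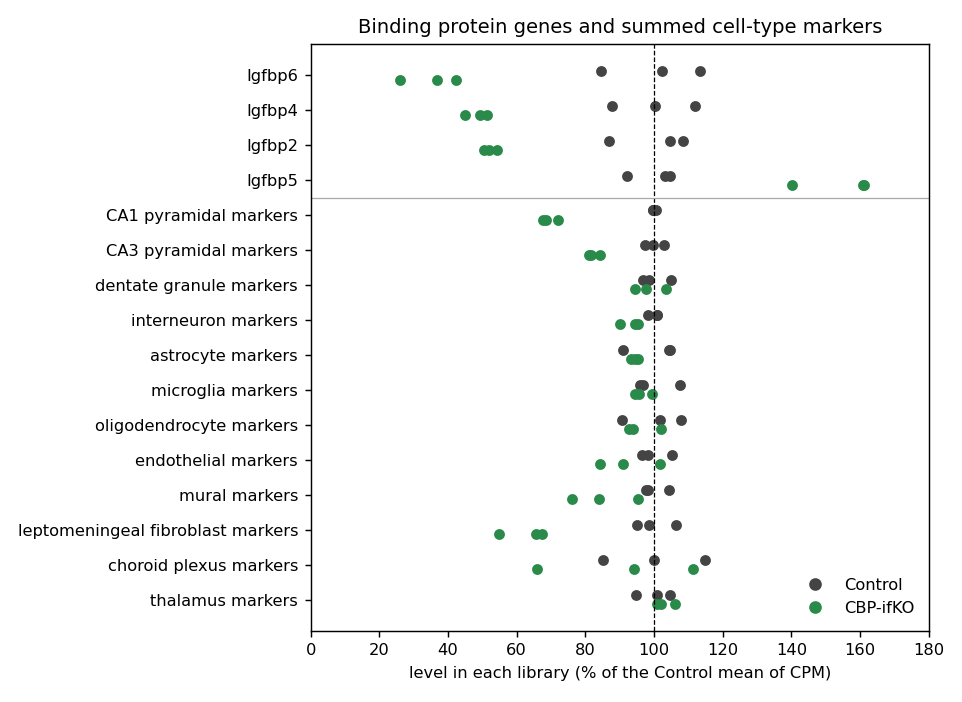
Levels of Igfbp2, Igfbp4, Igfbp5 and Igfbp6 (above the line) and summed CPM of 12 cell-type marker lists (below it) in each library, as percent of the Control mean (horizontal axis). Control libraries are dark and CBP-ifKO libraries green. The leptomeningeal fibroblast, CA1 pyramidal, CA3 pyramidal and mural sums average 62.6%, 69.4%, 82.3% and 85.1% of Control in CBP-ifKO. The astrocyte, microglia, oligodendrocyte and thalamus sums lie near 100%.

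The rest of the pathway was read from 4 lists with 81 genes, of which 70 were tested. Of these, 2 passed the threshold, both lower, which is 2.86% beside the 6.39% of all genes, and the median log2 fold change was -0.05. At an unadjusted p under 0.05 the order was the opposite, with 22 of the 70 (31.4%) beside 3816 of all 17981 genes (21.2%), and neither difference was tested. Among the proteases, inhibitors and other extracellular partners, 1 of 10 tested genes fell. This was Stc1, which encodes stanniocalcin 1, an inhibitor of PAPP-A, at 3.94, 2.06 and 2.68 CPM in the Controls, against 1.36, 1.31 and 1.40 CPM in the CBP-ifKO libraries. The groups did not overlap, and edgeR gave -1.08 on the log2 scale (SE 0.29), with an adjusted p of 0.0322. Its call was lost, at adjusted p-values of 0.0743 to 0.154, without any 1 of 5 libraries, Control replicate 2 being the exception, and DESeq2 gave it no adjusted p.

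Pappa and Pappa2, which encode proteases that cut IGF binding proteins, are named for that role, after their values were seen, and did not pass. Pappa had a log2 fold change of -0.07 (edgeR adjusted p 0.883). Pappa2 was at 2.16, 1.80 and 2.08 CPM in the Controls, against 0.969, 1.12 and 1.07 CPM in the CBP-ifKO libraries. Its groups did not overlap, and the log2 fold change was -0.92 with an edgeR adjusted p of 0.0649. With a filter of at least 10 counts in every library the adjusted p was 0.0414, past the threshold, and over the other alternatives that gave one it ran from 0.0651 to 0.190.

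Among the insulin receptor, adaptors and related genes, 1 of 16 tested genes fell. This was Shc3, an adaptor of receptor tyrosine kinases found mainly in neurons, at 61.1, 63.9 and 60.8 CPM in the Controls, against 53.3, 45.0 and 47.6 CPM in the CBP-ifKO libraries. The groups did not overlap, and edgeR gave -0.35 on the log2 scale (SE 0.075), with an adjusted p of 0.00874. The call was lost without CBP-ifKO replicate 2 (adjusted p 0.0720) or replicate 3 (0.0676). The insulin receptor Insr, at a log2 fold change of 0.09, and the docking proteins Irs1 and Irs2, at -0.26 and -0.20, are named as the first steps below the receptors, after their values were seen, and did not pass. Socs2 had the largest size in this list, at -0.37 with no overlap between the groups (edgeR adjusted p 0.0625). It is named after its value was seen, and it passed in several alternatives, among them the replicate block and the GC and length offsets.

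Downstream of the receptors, none of the 29 genes of the PI3K, AKT, mTOR and FOXO list and none of the 15 of the RAS and MAPK list passed in edgeR or DESeq2, with median log2 fold changes of -0.07 and 0.01, and 8 and 5 of them had an unadjusted p under 0.05, beside 21.2% of all genes. With 1 library left out, up to 1 gene of the first list was called lower, and up to 1 lower and 1 higher of the second. The largest size in these lists was -0.97 for Foxo6, a FOXO factor of the brain (edgeR adjusted p 0.061), named after its value was seen. Its groups overlapped, and it passed with no filter on low counts (adjusted p 0.000501) and without Control replicate 1 (0.0144), while GC and length offsets gave -0.53. Below the filter were Igfbp1, Igfbpl1, Igfals and 8 other genes, and both insulin genes, Ins1 and Ins2, had 0 counts in every library.

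**Figure D5:**
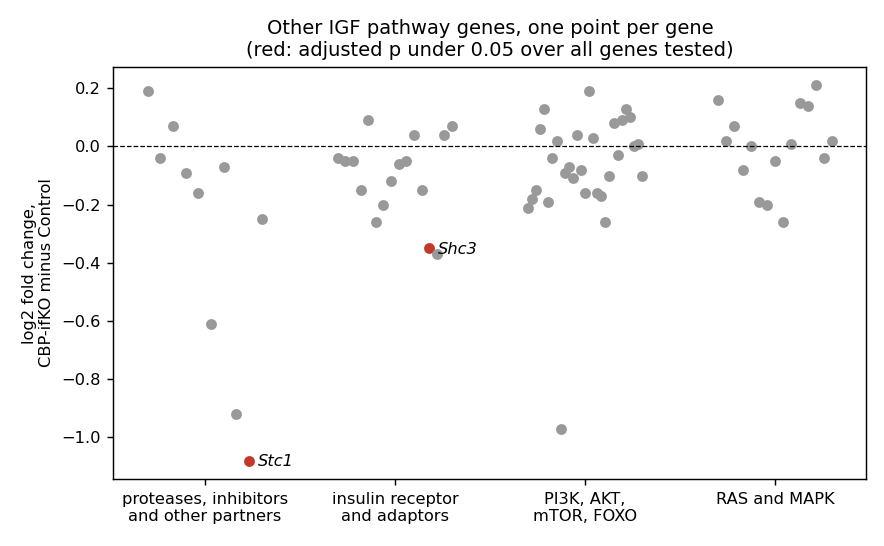
Log2 fold change of CBP-ifKO over Control (vertical axis) for the 70 tested genes of 4 IGF pathway lists (horizontal axis, one point per gene), red where the adjusted p was under 0.05 over all genes tested. Stc1 at -1.08 and Shc3 at -0.35 are red, and the medians of the PI3K and RAS lists are -0.07 and 0.01.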

How the data were processed

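Total RNA from pooled hippocampi was sequenced as single-end reads of 50 bp in 3 Control and 3 CBP-ifKO libraries, grouped by their labels. Per the study's methods and processing notes, the authors trimmed with Trim Galore 0.6.4, checked quality with FastQC 0.11.8, aligned with STAR 2.6.1 to GRCm38, removed alignments under a mapping quality limit and counted exonic reads with Rsubread. The deposited values are unnormalized read counts per gene. The strand setting is not given in the sources used here. Gene symbols and coordinates came from GENCODE for the same build, in which 55144 identifiers (99.41%) matched.

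Counts were tested with the quasi-likelihood F-test of edgeR 4.0.16 (R 4.3.3), with TMM scaling, filterByExpr (minimum count 10, minimum total 15) and Benjamini-Hochberg adjustment over all 17981 genes tested, of which 1149 passed an adjusted p of 0.05. SE is the log2 fold change divided by the square root of F, in size. CPM is TMM-scaled. The common coefficient of variation between replicates was 6.81%, and counting error exceeds this for genes of few counts. Replicates of a group differed by more than sampling noise (chi-square per degree of freedom at least 2.48). On simulated data, 84% of 200 genes changed by 1 on the log2 scale were recovered, and 8.2% of 183 calls fell on genes left as they were.

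The rule named all 10 members, Crebbp, Esr1, pathway genes past the threshold and the 3 nearest profiles of each member past it, and markers by list. One gene that the rule names is not reported here. The members, lists and alternatives were chosen with earlier results of these data known. The alternatives were DESeq2 1.42.0, RLE scaling, library totals, other filters, each library left out, the replicate number as a block, and GC and length offsets (natural splines, 5 degrees of freedom). The same replicate numbers showed little sign of marking paired samples.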

Additional observations from a re-analysis of the deposited data

How the results depend on the processing

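The log2 fold changes of Igfbp2 (-1.02 to -0.69), Igfbp4 (-1.13 to -0.95) and Igfbp5 (0.58 to 0.69) kept direction and stayed past the threshold in all 14 alternatives. Igfbp6 (-1.64 to -1.30) did so in 13, because DESeq2 gave it no adjusted p and is not in its range. The number of IGF genes called was 4 in each alternative, except 3 with DESeq2 and 5 without Control replicate 2, where Igf1r was added. With 1 library left out, the median of the 9 genes ran from -0.28 to -0.09 and Igf1 from -0.16 to 0.06, turning positive without Control replicate 1 (0.01) or CBP-ifKO replicate 3 (0.06).

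Of the other pathway genes, 2 were called in the main analysis, 1 with DESeq2, 6 with no filter, 4 with at least 10 counts in every library, 4 with GC and length offsets, 4 with the replicate block and 8 with the replicate block and these offsets together, and 0 to 5 with 1 library left out (5 without Control replicate 2, 1 when Control replicate 3 and 0 when CBP-ifKO replicate 2 or 3 was left out). Over all genes, the 1149 calls became 905 with DESeq2 and 1511 with no filter on low counts. They became 1839 with the replicate block and the offsets, and 1210 with the replicate block alone. With 1 library left out they ran from 498 to 1326 (546 when Control replicate 3 was left out, and 498 and 526 for CBP-ifKO replicates 2 and 3). The causes were not tested. Samples with the same replicate number correlated at 0.077, 0.037 and 0.0022 in their deviations. These values show little sign of pairing by number but cannot exclude it. With the block, 4 IGF genes were called.

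The split of 897 lower and 252 higher genes was 667 and 514 with library totals only, which moved the median of all genes to 0.043, 727 and 371 with the offsets, and 1122 and 717 with the offsets and the block. Depth limits Igf2, at no more than 3 counts in a library, and Igfbp6, at 13 to 49.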
